A study of Mus musculus with 6 samples.

Results

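The comparison described here sets Shank3 mutant mice given GSK-LSD1 against wild-type mice given vehicle, across all genes, and so gives the difference that remains after treatment. It uses the 4 libraries titled for those groups, 2 per group, of 6 in the series. The tissue was prefrontal cortex, the animals were 6 to 8 weeks old, and rRNA-depleted total RNA was sequenced as stranded libraries. The controls were wild type, from a C57BL/6 by C3H cross, and received vehicle. The treated animals carried 1 allele of Shank3 lacking its C-terminal part (Shank3 +/∆C) and received GSK-LSD1; neither the mutants' strain background nor the dose is given in the sources used here. The remaining 2 libraries came from mutants of the same genotype given vehicle, and they enter the fit and are quoted beside each gene. Wild-type animals given GSK-LSD1 were not analysed here. Per the series' design the libraries of a group came from separate mice. With 2 libraries a group, p-values measure only the spread between mice of a group. That spread was estimated over all 3 groups, with information shared across genes.

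Shank3 is a scaffold protein of the postsynaptic density, where it links glutamate receptors to the actin cytoskeleton at excitatory synapses, and loss of 1 copy is tied to autism and Phelan-McDermid syndrome. LSD1, encoded by Kdm1a, removes methyl groups from histone H3 lysine 4 together with the CoREST corepressor, and GSK-LSD1 is an irreversible inhibitor of it. The prefrontal cortex holds layered excitatory neurons, inhibitory interneurons and glia, all of which contribute RNA to a whole-tissue library. In such samples fewer cells of a type and less RNA per cell cannot be told apart.

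Counted reads came to 15194848 and 28646960 in wild type and to 23538125 and 14133834 in treated mutants. Levels are in CPM (read counts scaled to a common library total), listed as replicate 1 and replicate 2. Differences are log2 fold changes, treated mutants minus wild type, with an approximate standard error (±, SE). A gene passed when edgeR's quasi-likelihood test, fitted to all 6 libraries and adjusted over 18705 genes by Benjamini-Hochberg, gave an adjusted p under 0.05.

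Shank3 itself (GRCm38, chromosome 15 from 89499623 to 89560261, plus strand) had 153 and 159.8 CPM in wild type and 159 and 148 in treated mutants, and the difference did not pass (-0.03 ± 0.11, adjusted p = 0.949). Reads from exons that the mutant allele retains are part of this count, so it checks the genotype only in part. Kdm1a (chromosome 4 from 136550540 to 136602723, minus strand), the inhibitor's target, stood at 93.1 and 102 CPM in wild type and 95.3 and 89.9 in treated mutants (-0.07 ± 0.11, adjusted p = 0.806). An inhibitor acts on the enzyme, and its transcript does not report that activity.

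After treatment 491 genes separated the mutants from wild type, which is 2.62% of those tested. Treated mutants were higher in 119 (0.636%) and lower in 372 (1.99%). The higher genes had a median log2 fold change of 0.74 and 35 of them differed by more than 2-fold, while the lower ones had a median of -0.56 and 8 differed by more than 2-fold. Lower genes were mostly well expressed, with a median of 108 CPM against 26.0 for the higher and 12.4 for all tested genes. In all 491 the 2 treated libraries lay outside the range of the 2 wild-type ones, as they did in 45.8% of all tested genes. For comparison, mutants given vehicle differed from the same wild-type libraries in 238 genes (1.27%), 52 higher (0.278%) and 186 lower (0.994%), and treated from untreated mutants in 20 (0.107%), 19 higher (0.102%) and 1 lower (0.00535%). These 3 comparisons share libraries, so their values are set side by side per gene below and their gene lists are not compared.

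The counts depended on single libraries. Without wild-type replicate 1 only 6 genes passed: Hap1, Prph, Baiap3 and Zcchc12 higher, and Scube1 and the predicted gene Gm9866 lower. Among the gene lists below, only the 4 higher markers of hypothalamus, septum and preoptic area, which are also 1 member each of the vesicle and motor lists, still passed without that library. Without treated replicate 2 there were 197 genes (35 higher, 162 lower), and without treated replicate 1 there were 631 (292 higher, 339 lower). Scaling to the plain library total gave 253 genes with 43.9% of them higher, against 24.2% with the scaling used here, and moved the median over all genes from 0.02 to 0.10.

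**Figure D1:**
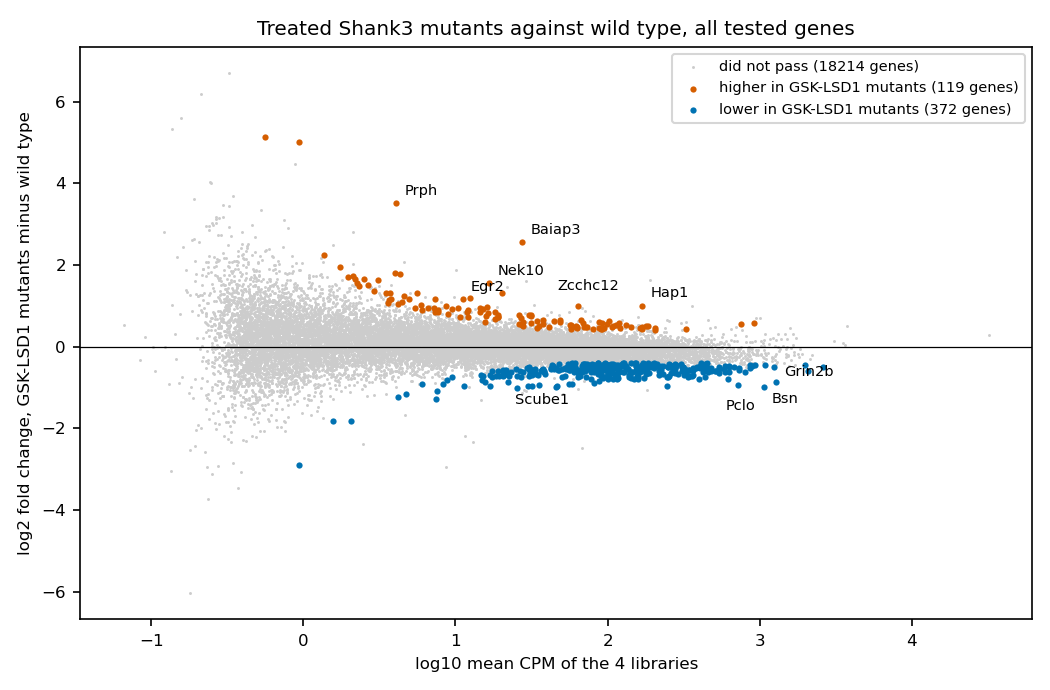
Log2 fold change, treated mutants minus wild type, against the log10 of the mean CPM over the 4 libraries, 1 point per tested gene. The 372 lower genes (blue) lie mostly at high CPM and close to 0.5 below the zero line, while the 119 higher genes (orange) reach larger fold changes at low CPM.

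In the higher genes with the smallest p, treated mutants also stood above mutants given vehicle. Hap1, the huntingtin-associated protein that links vesicles to microtubule motors, stood at 125 and 99.5 CPM in wild type, 98.9 and 89.1 in mutants given vehicle and 218 and 232 in treated mutants. It was higher in both treated libraries than in any other (1.01 ± 0.12 against wild type, edgeR adjusted p = 0.000538; 1.26 ± 0.12 against untreated mutants, adjusted p = 3.90e-05). Baiap3, an exocytosis protein of the Munc13 family, lay at 8.76 and 7.37 CPM in wild type, 11.6 and 6.89 with vehicle and 42.4 and 51.6 with GSK-LSD1. Again both treated libraries stood above the other 4, by 2.55 ± 0.22 against wild type (adjusted p = 0.000538) and by 2.35 against untreated mutants (adjusted p = 0.000342). Prph, which encodes the intermediate filament peripherin, was low at 0.753 and 0.578 CPM in wild type and 0.552 and 1.54 with vehicle, and reached 7.08 and 7.84 with treatment (3.51 ± 0.41, adjusted p = 0.000538; 2.82 against untreated mutants, adjusted p = 0.00301). Zcchc12, a zinc finger coactivator, went from 44.1 and 41.6 CPM in wild type and 51.5 and 42.4 with vehicle to 76.2 and 93.4 in treated mutants (0.98 ± 0.12, adjusted p = 0.00132; 0.85 against untreated mutants, adjusted p = 0.00618). These 4 and Scube1, described further on, were the only named genes that passed in every alternative that gave them a value.

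Nek10, a kinase of the NIMA family, followed the same order, at 9.65 and 7.41 CPM in wild type, 11.03 and 6.44 with vehicle and 24.1 and 25.4 with treatment (1.55 ± 0.22, adjusted p = 0.00475). Doc2b, a calcium sensor of vesicle release, was at 16.4 and 11.9 CPM in wild type, 11.3 and 11.3 with vehicle and 24.3 and 23.2 in treated mutants (0.76 ± 0.17 against wild type, adjusted p = 0.0209). Treated mutants were above untreated ones for both genes (1.501, adjusted p = 0.0108, for Nek10 and 1.07, adjusted p = 0.0108, for Doc2b). The Doc2b call against wild type depended on single libraries. With 1 library left out its difference from wild type ranged from 0.531 to 0.997, and that of Nek10 from 1.354 to 1.735. Espn, an actin-bundling protein, had 2.05 and 1.59 CPM in wild type and 6.57 and 5.86 in treated mutants (1.80 ± 0.29, adjusted p = 0.00475), with 2.48 and 2.72 in untreated mutants, from which treatment did not separate at the threshold (1.26, adjusted p = 0.119).

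The promoters of the 5 genes whose calls held throughout are shown because these genes passed in every alternative that gave a value. Each window runs from 250 bases before to 30 after the first start site listed by RefSeq (GRCm38.p6), 5′ to 3′ on the gene's strand. Capitals mark matches, on either strand, to TATAAA (the TATA box core), GGGCGG (the GC box), CCAAT (the CCAAT box) and TGACGTCA (the cAMP response element).
Hap1, chr11:100356112-100356391 (minus strand): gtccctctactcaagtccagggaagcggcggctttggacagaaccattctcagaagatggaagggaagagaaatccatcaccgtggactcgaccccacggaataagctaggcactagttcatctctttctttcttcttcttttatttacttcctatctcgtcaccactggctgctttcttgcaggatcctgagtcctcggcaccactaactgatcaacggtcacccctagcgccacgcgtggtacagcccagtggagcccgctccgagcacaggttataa
Baiap3, chr17:25256335-25256614 (minus strand): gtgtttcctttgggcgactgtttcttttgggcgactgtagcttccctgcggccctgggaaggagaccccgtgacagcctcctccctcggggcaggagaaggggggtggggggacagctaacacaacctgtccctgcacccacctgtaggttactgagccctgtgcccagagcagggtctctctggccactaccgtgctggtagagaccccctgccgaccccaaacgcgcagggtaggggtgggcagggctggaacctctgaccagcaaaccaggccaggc
Prph, chr15:99054924-99055203 (plus strand): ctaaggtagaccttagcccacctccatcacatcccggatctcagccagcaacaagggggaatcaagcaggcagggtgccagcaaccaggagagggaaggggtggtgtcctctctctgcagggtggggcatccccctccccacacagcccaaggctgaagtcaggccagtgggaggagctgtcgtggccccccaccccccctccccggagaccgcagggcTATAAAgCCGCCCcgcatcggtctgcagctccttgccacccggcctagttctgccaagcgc
Zcchc12, chrX:36195654-36195933 (plus strand): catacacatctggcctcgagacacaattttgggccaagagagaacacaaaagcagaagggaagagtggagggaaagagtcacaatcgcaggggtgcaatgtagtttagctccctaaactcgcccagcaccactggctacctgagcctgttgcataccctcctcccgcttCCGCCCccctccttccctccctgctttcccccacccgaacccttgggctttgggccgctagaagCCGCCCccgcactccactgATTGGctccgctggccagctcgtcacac
Scube1, chr15:83725010-83725289 (minus strand): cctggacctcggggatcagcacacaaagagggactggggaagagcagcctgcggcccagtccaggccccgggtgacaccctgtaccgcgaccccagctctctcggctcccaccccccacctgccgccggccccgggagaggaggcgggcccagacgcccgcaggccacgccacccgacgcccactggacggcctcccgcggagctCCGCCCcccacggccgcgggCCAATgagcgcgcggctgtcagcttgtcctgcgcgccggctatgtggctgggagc

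Of 32851 mouse promoter windows of this length, 13.1% held TATAAA, 34.7% GGGCGG, 36.1% CCAAT and 1.74% TGACGTCA. Prph had 1 TATAAA followed by 1 GC box, Zcchc12 had 2 GC boxes and 1 CCAAT box, and Scube1 had 1 GC box and 1 CCAAT box. None of these motifs occurred in the windows of Hap1 and Baiap3. The 4 higher genes had 9 to 13 CpG dinucleotides in the window and Scube1 had 28, against a median of 6 over all windows. These matches describe the sequence and do not show that a factor binds there.

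In other higher genes the mutants given vehicle lay close to the treated ones. Rgcc, a regulator of the cell cycle induced by complement, lay at 6.71 and 8.31 CPM in wild type, 18.8 and 12.9 with vehicle and 18.3 and 16.4 with treatment. It passed both against wild type after treatment (1.20 ± 0.20, adjusted p = 0.00544) and in vehicle mutants (1.06 ± 0.20, adjusted p = 0.0222), and the 2 mutant groups overlapped. Aldh1a1, an enzyme of retinoic acid synthesis, was at 10.5 and 10.5 CPM in wild type, 18.0 and 21.5 with vehicle and 17.3 and 22.7 with GSK-LSD1 (0.92 ± 0.17, adjusted p = 0.0104; 0.91 under vehicle, adjusted p = 0.0222). Selenom, a selenoprotein of the endoplasmic reticulum, had 22.6 and 24.2 CPM in wild type, 37.5 and 30.5 with vehicle and 38.7 and 40.5 with treatment (0.75 ± 0.13, adjusted p = 0.00658). In untreated mutants Selenom did not pass (0.53, adjusted p = 0.0502).

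The other genes among the 15 higher ones with the smallest p have varied roles. Txnip, an inhibitor of thioredoxin, went from 12.5 and 13.6 CPM in wild type to 23.2 and 23.9 in treated mutants (0.85 ± 0.16, adjusted p = 0.0101). Slc16a3, a lactate transporter, was at 4.31 and 4.73 CPM against 10.4 and 10.02 (1.17), and Aldh2, mitochondrial aldehyde dehydrogenase, at 47.2 and 57.2 against 82.3 and 81.7 (0.65). Ptpro, a receptor tyrosine phosphatase, rose by 0.63, and Hist1h4i, a replication-type histone H4 gene with near-identical copies that may share reads, by 0.97. In all 5 of these genes the mean of the vehicle mutants lay between those of wild type and treated mutants, as the plot of single libraries shows.

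**Figure D2:**
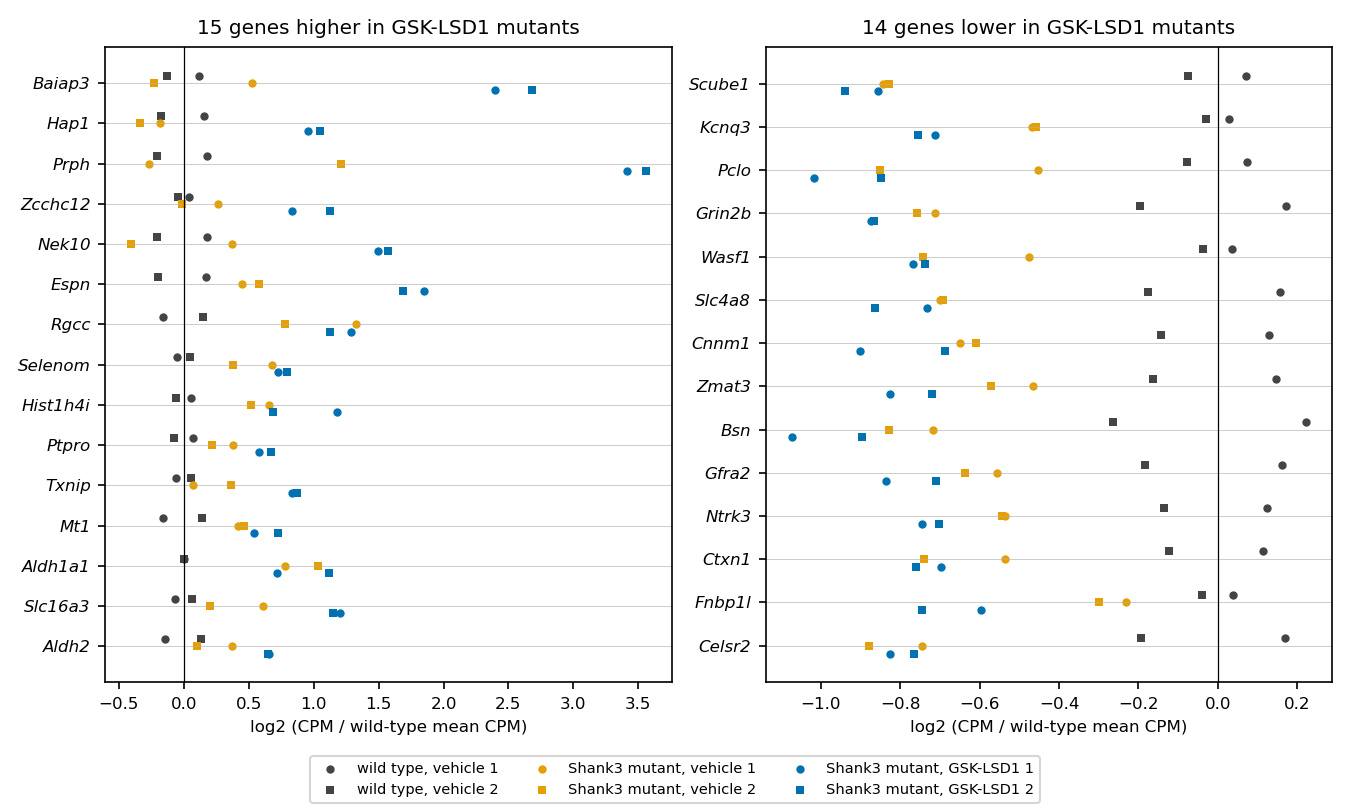
CPM of each library relative to the wild-type mean, on a log2 scale, for the 15 higher and 14 lower genes with the smallest adjusted p; circles are replicate 1 and squares replicate 2. For Baiap3, Hap1, Prph, Zcchc12, Nek10, Espn, Txnip, Slc16a3, Aldh2 and Ptpro, among others, both treated libraries (blue) stand above all the rest. For most of the lower genes, and not for Fnbp1l, the vehicle mutants (orange) lie beside the treated ones.

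The leading lower genes were secreted, channel and cytoskeletal proteins, and the vehicle mutants lay below wild type in them too. Scube1, a secreted EGF-domain protein, was counted at 112 and 101 CPM in wild type, 59.1 and 59.7 in vehicle mutants and 58.6 and 55.3 in treated mutants. The 4 mutant libraries lay close together below both wild-type ones, and the treated difference was -0.89 ± 0.11 (edgeR adjusted p = 0.000538) against -0.84 ± 0.10 under vehicle (adjusted p = 0.00255). Treated and untreated mutants differed by -0.06 ± 0.11 (adjusted p = 0.999). Kcnq3, a subunit of the M-type potassium channel that steadies neuronal firing, had 319 and 307 CPM in wild type, 226 and 228 with vehicle and 191 and 186 with treatment (-0.73 ± 0.10, adjusted p = 0.00374). Here the treated libraries were the lowest of the 6, though treatment itself did not pass (-0.27, adjusted p = 0.763). Wasf1, which drives actin branching in the WAVE complex, stood at 206 and 195 CPM in wild type, 144 and 119.7 with vehicle and 118 and 120.1 with treatment (-0.75 ± 0.11, adjusted p = 0.00458).

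Transporters and receptors were among the other leading lower genes. Slc4a8, a sodium-coupled bicarbonate transporter, was at 209 and 166 CPM in wild type against 113 and 103 in treated mutants (-0.79), and Cnnm1, of the cyclin M family, at 108 and 89.2 against 52.7 and 61.1 (-0.79). The receptors Gfra2 (for neurturin, -0.77) and Ntrk3 (for neurotrophin-3, -0.72) were lower, as were the membrane protein cortexin 1 (Ctxn1, -0.73), Zmat3, a p53-regulated RNA-binding protein (-0.77), and Celsr2, a cadherin of the planar polarity pathway (-0.80). Fnbp1l, a membrane-bending adaptor of actin assembly, differed from most of this set, at 127 and 120.3 CPM in wild type, 105 and 101 with vehicle and 81.9 and 73.9 with GSK-LSD1. It passed after treatment (-0.67 ± 0.10, adjusted p = 0.00475) and not under vehicle (-0.26, adjusted p = 0.241), and the test of treated against untreated mutants gave -0.40 (adjusted p = 0.296).

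Receptors and scaffolds of the glutamatergic postsynapse, where Shank3 acts, were lower in treated mutants wherever they passed. For this and every list below, the shares over all tested genes were 1.99% lower and 0.636% higher. In the longest of 5 equal parts by exonic length 5.97% were lower. Of 6 tested NMDA receptor subunits 3 were lower and 0 higher, with a median log2 fold change of -0.42 over the list against 0.02 over all tested genes. Grin2b, the subunit that prevails in early life, was counted at 1855 and 1438 CPM in wild type, 1004 and 973 with vehicle and 898 and 903 with treatment (-0.87 ± 0.13, edgeR adjusted p = 0.00458). Its 4 mutant libraries all lay below both wild-type ones, and treatment did not separate them (-0.13, adjusted p = 0.989). Grin2a (-0.54) and the obligate subunit Grin1 (-0.44) were also lower. Among 19 AMPA and kainate receptor subunits and auxiliary proteins, 5 were lower and 0 higher (median -0.24), including the kainate subunit Grik5, at 200.01 and 152 CPM in wild type against 109 and 120.3 (-0.61), and the AMPA auxiliary subunit Cacng3 (-0.51). Of 7 metabotropic glutamate receptors only the presynaptic Grm2 passed, at 95.1 and 104 CPM against 64.8 and 64.0 (-0.63). Without treated replicate 2, 1 NMDA receptor subunit and 1 of the 19 AMPA and kainate genes were lower, and without treated replicate 1, 3 of the 19. With libraries scaled to their plain totals, 2 NMDA receptor subunits and 1 of the 19 were lower.

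Postsynaptic density scaffolds had 5 of 22 tested members lower and 0 higher (median -0.21), against 1.99% and 0.636% of all tested genes. Iqsec2, an exchange factor for Arf6, was at 197 and 147 CPM in wild type, 113 and 118 with vehicle and 100.1 and 117 with treatment (-0.66 ± 0.13, adjusted p = 0.0154). Its relative Iqsec1 (-0.46), and Dlgap2 (-0.53) and Dlgap4 (-0.46), which bridge Shank proteins to PSD-95, were among the others. Synaptic adhesion proteins showed 6 of 24 lower and 0 higher (median -0.35). Nlgn2, the neuroligin of inhibitory synapses, stood at 343 and 269 CPM in wild type and 180.1 and 187 in treated mutants (-0.74 ± 0.12, adjusted p = 0.00475), and the presynaptic neurexins Nrxn3 (-0.63) and Nrxn2 (-0.52) were lower with it. Of 14 GABA receptor subunits 3 were lower and 0 higher (median -0.17): Gabrg3 (-0.59), Gabbr2 (-0.59) and Gabrb1 (-0.51). Without treated replicate 2 the lower members numbered 3 among scaffolds, 2 among adhesion proteins and 0 among GABA receptors, and without treated replicate 1 the scaffolds numbered 3. Scaling to plain library totals left 2 scaffolds and 3 adhesion proteins lower.

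Presynaptic genes gave 3 of 16 active zone proteins lower and 0 higher (median -0.20), against 1.99% and 0.636% of all tested genes. Bsn (bassoon), a giant scaffold of the release site, fell from 1647 and 1175 CPM in wild type to 670.1 and 758 in treated mutants, with 858 and 794 under vehicle (-0.98 ± 0.14, edgeR adjusted p = 0.00475). Pclo (piccolo), its relative, had 989 and 892 CPM in wild type, 687 and 521 with vehicle and 465 and 522 with treatment (-0.93 ± 0.13, adjusted p = 0.00458). The treated libraries were the lowest of all 6 for Bsn and overlapped the vehicle ones for Pclo, and treatment passed for neither (-0.21, adjusted p = 0.975, and -0.29, adjusted p = 0.855). Of 30 vesicle and fusion proteins 3 were lower and 2 higher (median -0.18). Without treated replicate 1, 6 of them were lower, and without wild-type replicate 2 or treated replicate 2, 1 was higher. Syn1 (synapsin 1, -0.80) and the SNARE protein Vamp2 (-0.69) were lower, and the 2 higher ones were Baiap3 and Doc2b, described above.

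Calcium and potassium channels held the largest shares of lower genes among these lists after the NMDA receptor, against 1.99% over all tested genes. Of 15 calcium channel genes 7 were lower and 0 higher (median -0.33), among them the T-type pore Cacna1g at 129.6 and 105 CPM in wild type, 73.1 and 88.9 with vehicle and 71.7 and 66.6 with treatment (-0.76 ± 0.12, edgeR adjusted p = 0.00546). The L-type Cacna1d (-0.71), the P/Q-type Cacna1a (-0.65), the N-type Cacna1b (-0.66) and the R-type Cacna1e (-0.63) were lower too. Of 27 potassium and HCN channel genes 9 were lower and 0 higher (median -0.38). Kcnb2 lay at 110.3 and 99.1 CPM in wild type and 68.0 and 66.4 in treated mutants (-0.64), and Kcnh1 (-0.58) and Kcna2 (-0.56) followed. Kcna2 passed after treatment and not under vehicle (-0.32, adjusted p = 0.157), but treated and untreated mutants did not differ at the threshold (-0.24, adjusted p = 0.855). Among 8 sodium channel genes Scn8a, the pore of the axon initial segment, was the 1 that passed (-0.64). The count of lower potassium and HCN channel genes was 5 without treated replicate 2.

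**Figure D3:**
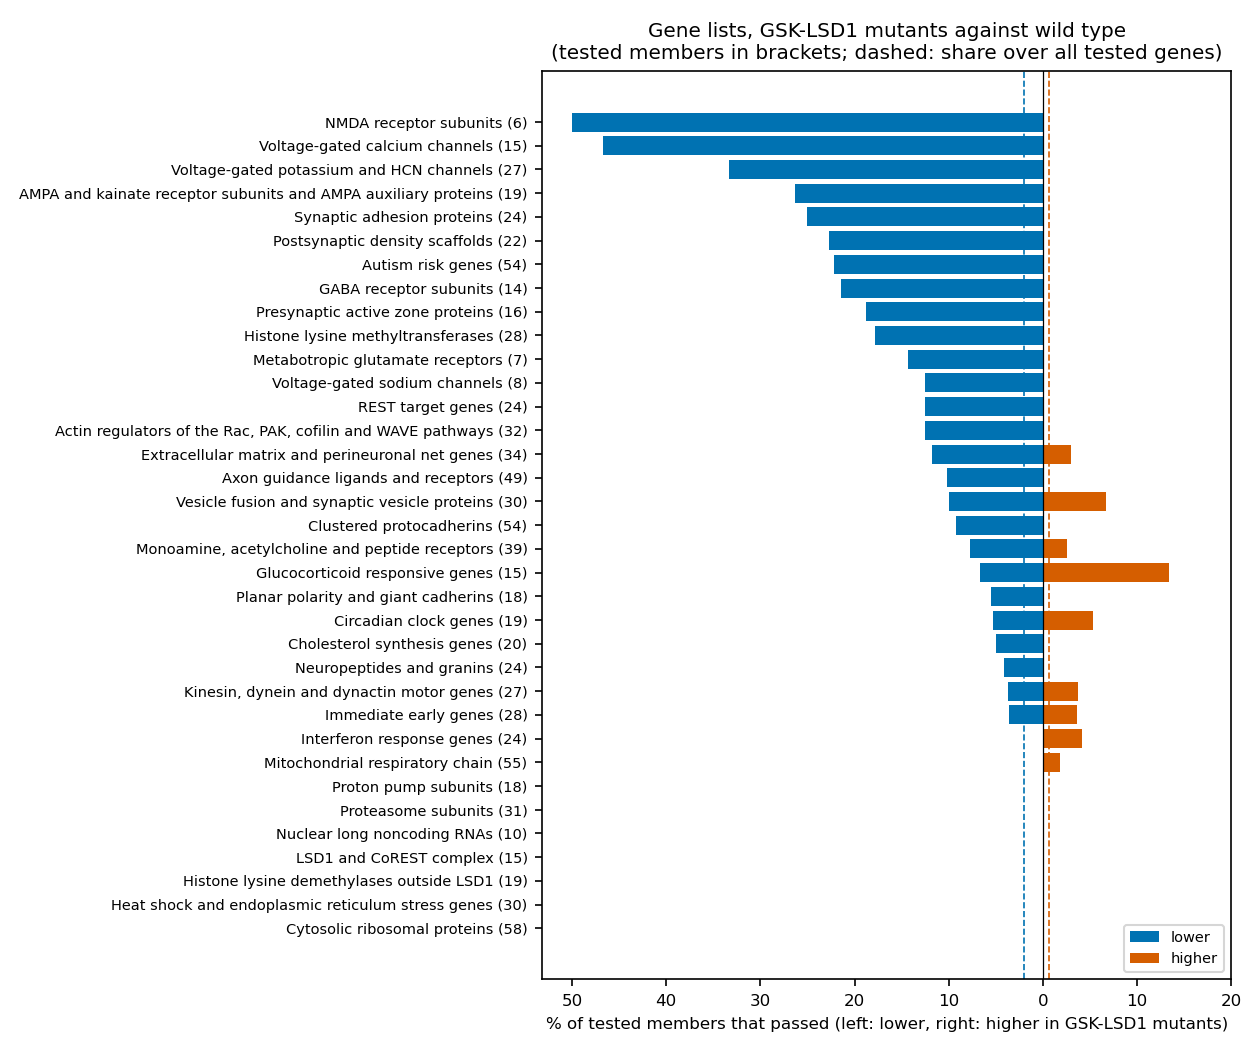
Share of the tested members of each functional list that passed, lower to the left and higher to the right, with the number tested in brackets. Dashed lines mark 1.99% lower and 0.636% higher over all tested genes; NMDA receptor subunits and calcium channels reach farthest to the left, and 7 lists have no member that passed.

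Receptors for modulators and cues of wiring gave smaller shares, where 1.99% of all tested genes were lower and 0.636% higher. Of 39 monoamine, acetylcholine and peptide receptors 3 were lower and 1 higher (median -0.10). The noradrenaline receptor Adra1b (-0.71), the opioid receptor Oprd1 (-0.67) and the muscarinic receptor Chrm1 (-0.51) were lower, and Oxtr, the oxytocin receptor, was higher at 11.9 and 10.7 CPM in treated mutants against 7.67 and 5.49 in wild type (0.80 ± 0.21, adjusted p = 0.0498). Axon guidance genes had 5 of 49 lower and 0 higher (median -0.21), among them the receptor Plxna1 (-0.77) and the ligand Slit2 (-0.62). Of 54 clustered protocadherins, surface proteins of neuronal self-recognition, 5 were lower and 0 higher (median -0.43), and 40 of the 54 had both treated libraries below both wild-type ones, against 22.4% of all tested genes. Their isoforms share constant exons, so counts of single members are uncertain; the 5 were Pcdhga2, Pcdhga3, Pcdhb19, Pcdhb17 and Pcdhac2, between -0.83 and -0.45. With libraries scaled to their plain totals 0 protocadherins, 2 guidance genes and 1 receptor were lower and 0 receptors higher. Oxtr also lost its call under RLE or upper quartile scaling and with the 4 libraries alone. The replicate block, the length and GC correction and the oligodendrocyte covariate each removed that call as well. Without treated replicate 2 the lower members numbered 0 among receptors, 1 among guidance genes (3 without vehicle replicate 1) and 1 among protocadherins (2 without treated replicate 1), while Oxtr lost its call without any 1 of 5 libraries.

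Matrix genes included some for which treated mutants lay nearer to wild type than untreated ones did, and actin regulators are given after them. Of 34 extracellular matrix genes 4 were lower and 1 higher, against 1.99% and 0.636% of all tested genes. Reln, the glycoprotein that guides cortical layering, was at 192 and 194 CPM in wild type, 122 and 125 with vehicle and 141 and 152 with treatment, and the 3 groups did not overlap. Its difference from wild type was -0.39 ± 0.10 after treatment (adjusted p = 0.0454) and -0.64 ± 0.10 under vehicle (adjusted p = 0.0111), but treated and untreated mutants did not differ at the threshold (0.25 ± 0.10, adjusted p = 0.799). The call after treatment did not hold when any single library was dropped, under upper quartile or plain library scaling, with the 4 libraries alone, with the replicate block and with the length and GC correction. Pxdn, a peroxidase that crosslinks collagen, had the same order at 34.3 and 41.1 CPM, 19.7 and 19.5 and 21.9 and 28.8 (-0.58 after treatment, -0.95 under vehicle, and 0.37 treated against untreated, adjusted p = 0.799). The Pxdn call after treatment was lost under upper quartile or plain library scaling, with the 4 libraries alone and with the length and GC correction. It also depended on single libraries, and its difference from wild type ranged from -0.79 to -0.40 with 1 left out. Tnr, tenascin-R of perineuronal nets (-0.55), and Fras1, of basement membranes (-0.65), were lower, and Sparc, a secreted matrix regulator, was higher (0.45). Of 32 actin regulators of the Rac, PAK, cofilin and WAVE pathways 4 were lower and 0 higher: Wasf1, Cyfip2 (-0.50), Ssh2 (-0.42) and Wasl (-0.41). With 1 library left out the lower actin regulators numbered 0 to 2, and without treated replicate 1 the lower matrix genes numbered 2. Scaling to plain library totals left 2 lower in each of these lists.

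Genes of chromatin enzymes bear on the inhibitor's own field of action. Of 15 tested members of the LSD1 and CoREST complex list 0 passed (median -0.01, or 0.07 when libraries were scaled to their plain totals), with 2 higher and 1 lower at an unadjusted p under 0.05, where 7.11% and 8.62% of all tested genes were. Rest, the repressor that recruits CoREST, lay at 4.997 and 6.54 CPM in wild type, 7.81 and 9.66 with vehicle and 7.97 and 9.95 with treatment (0.61 ± 0.22, adjusted p = 0.168). Of 19 other histone lysine demethylases 0 passed, with 0 higher and 3 lower at an unadjusted p under 0.05. Among 28 histone lysine methyltransferases 5 were lower and 0 higher (median -0.26), against 1.99% and 0.636% of all tested genes. Kmt2a, an H3 lysine 4 methyltransferase, went from 199.7 and 146 CPM in wild type to 90.1 and 117 in treated mutants (-0.74 ± 0.15, adjusted p = 0.0262), with its relative Kmt2e at -0.52 and Setd5 at -0.50. None of the methyltransferases passed under vehicle, where Kmt2a stood at 109.5 and 112 CPM, and the treatment difference of Kmt2a was -0.10 (adjusted p = 0.996). Neuronal REST targets had 3 of 24 lower and 0 higher (Syn1, Grin1 and L1cam), and autism risk genes 12 of 54 lower and 0 higher (median -0.30); beside members already named these included Mbd5 (-0.52), Wdfy3 (-0.54), Myt1l (-0.44) and Asxl3 (-0.49). With a correction for exonic length and GC content 3 of the 54 autism risk genes passed, and without treated replicate 2 it was 4 of 54, 1 REST target and 3 methyltransferases (1 methyltransferase without treated replicate 1). With libraries scaled to their plain totals 1 methyltransferase, 1 REST target and 3 autism risk genes were lower.

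Immediate early genes, which neurons transcribe within minutes of activity, had 1 of 28 tested members higher (Egr2) and 1 lower (Nptx2). The list median was 0.20 after treatment and -0.19 under vehicle. Egr2, a zinc finger factor, stood at 5.61 and 7.91 CPM in wild type, fell to 2.85 and 3.13 in vehicle mutants and was highest at 12.6 and 18.5 in treated mutants. All 3 comparisons of Egr2 passed (1.17 ± 0.23 treated against wild type, edgeR adjusted p = 0.0133; -1.20 ± 0.25 under vehicle, adjusted p = 0.0302; 2.36 ± 0.24 treated against untreated, adjusted p = 0.000107). Egr4, its relative, was at 31.1 and 27.1 CPM in wild type, 14.4 and 15.8 with vehicle and 24.6 and 31.7 with treatment. For Egr4 the vehicle difference passed (-0.94, adjusted p = 0.0117), as did treated against untreated mutants (0.89, adjusted p = 0.0238), and treated mutants overlapped wild type (-0.05 ± 0.15, adjusted p = 0.921).

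Other early genes were above wild type in both treated libraries without passing. Fos, a subunit of the AP-1 factor, was at 16.6 and 26.1 CPM in wild type, 15.1 and 11.9 with vehicle and 34.9 and 53.8 with treatment (1.03 ± 0.29, adjusted p = 0.159). Arc, a regulator of AMPA receptor uptake, had 49.4 and 134 CPM in wild type and 201 and 378 in treated mutants (1.64 ± 0.66, adjusted p = 0.4), and its wild-type libraries differed by more than 2-fold. Both treated libraries lay above both wild-type ones in 12 of the 28 genes and below them in 4, where 23.5% and 22.4% of all tested genes did so. Nptx2, a pentraxin that clusters AMPA receptors, was lower at 45.2 and 48.3 CPM against 66.1 and 63.1 (-0.47 ± 0.12, adjusted p = 0.0479) and lay at 48.7 and 38.2 under vehicle. The early gene calls depended on single libraries and on scaling. The list median did not follow the number of members that passed. It was 0.09 without wild-type replicate 2, 0.30 without treated replicate 1 and 0.17 without treated replicate 2. With 1 library left out Egr2 ranged from 0.87 to 1.45 and Nptx2 from -0.5135 to -0.425. Nptx2 lost its call under upper quartile or plain library scaling and with the replicate block.

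Genes that follow hormones and the time of day were listed as well. Of 15 glucocorticoid-responsive genes 2 were higher and 1 lower (median 0.35), against 0.636% and 1.99% of all tested genes. At an unadjusted p under 0.05, 8 of the 15 were higher and 1 lower, where 7.11% and 8.62% of all tested genes were, and 10 had both treated libraries above both wild-type ones, against 23.5% of all tested genes. Tsc22d3 (GILZ), a mediator of glucocorticoid action, went from 64.4 and 73.5 CPM in wild type to 95.6 and 116 in treated mutants, with 98.8 and 100.4 under vehicle (0.61 ± 0.11, edgeR adjusted p = 0.0112). Mt1, a metallothionein, had 71.6 and 88.3, 107 and 110.2 and 116 and 132 CPM in the same order of wild type, vehicle and treated (0.63), and the zinc finger factor Zbtb16 was lower (-0.45). Of 19 circadian clock genes the repressor Nr1d1 was lower, at 65.5 and 67.8 CPM in wild type against 40.4 and 49.5 (-0.57), and Ciart, another repressor of the clock, higher (0.74). Neither higher glucocorticoid-responsive gene passed without treated replicate 2, and Zbtb16 lost its call without wild-type replicate 2, vehicle replicate 1 or treated replicate 1 and with libraries scaled to their plain totals. Nr1d1 lost it with that scaling too, and neither clock gene passed without wild-type replicate 2 or treated replicate 1. The hour of collection is not given in the sources used here.

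Lists of housekeeping genes had few members that passed. Among 55 genes of the mitochondrial respiratory chain Ndufa4 alone passed (0.43), yet 47 of the 55 had both treated libraries above both wild-type ones, against 23.5% of all genes, and the list median was 0.25. With the correction for length and GC content that median was 0.15 and 0 passed. Ndufa4 lost its call with any 1 of the 6 libraries left out, whereas with libraries scaled to their plain totals 4 of the 55 were higher and the median was 0.33. Cytosolic ribosomal protein genes (0 of 58, median 0.17, with 6 higher and 0 lower at an unadjusted p under 0.05), proteasome subunits (0 of 31, median 0.14, with 5 and 0) and heat shock and endoplasmic reticulum stress genes (0 of 30, median 0.06, with 3 and 2) had no member that passed. Over all tested genes 7.11% were higher and 8.62% lower at that unadjusted p. Interferon response genes had 1 of 24, Ifit1, higher at 2.88 and 2.73 CPM in treated mutants against 0.274 and 1.05 in wild type (1.95 ± 0.47), a call lost without either treated library.

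Markers of cortical cell types were measured in every library, and some moved with the groups. Excitatory neuron markers had 3 of 10 lower and 0 higher (median -0.29), with a summed level of 4162 and 3943 CPM in wild type and 3621 and 3258 in treated mutants. Tbr1, a T-box factor of cortical projection neurons, was at 146 and 133 CPM in wild type, 129 and 101 with vehicle and 102 and 89.0 with treatment (-0.54 ± 0.12, edgeR adjusted p = 0.026), and Nrgn (-0.41) was lower as well. Upper layer markers had 0 of 9 that passed and deep layer markers 0 of 11, with 0 of either kind higher and 0 and 3 lower at an unadjusted p under 0.05. Of all tested genes 7.11% were higher and 8.62% lower at that p. Of 16 inhibitory neuron markers 1, Reln, was lower (median 0.05). Reln lost this call with any 1 library left out, and 1 excitatory marker was lower without treated replicate 2 or with libraries scaled to their plain totals. Nrgn lost its call under upper quartile or plain library scaling, with the 4 libraries alone, the replicate block and the oligodendrocyte covariate. Its call also depended on single libraries, with a range from -0.47 to -0.36 when 1 was left out. The part of the excitatory marker difference in the lower synaptic and channel genes was not tested.

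Astrocyte markers had 4 of 12 higher and 0 lower (median 0.46), with summed levels of 3942 and 4866 CPM in wild type, 5571 and 5937 with vehicle and 5564 and 5849 with treatment. Gja1, the connexin that couples astrocytes, was at 140.2 and 163 CPM in wild type, 219 and 241 with vehicle and 203 and 227 with treatment (0.50 ± 0.11, adjusted p = 0.0233). Aldoc, the glial aldolase (0.56), Aldh1l1 (0.47) and the water channel Aqp4 (0.46) were higher too, and all 4 mutant libraries lay above both wild-type ones in these 4 genes. Without treated replicate 2, 0 of the 12 passed.

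The 2 treated libraries parted from each other in oligodendrocyte markers. Their summed level was 2623 and 2394 CPM in wild type, 6209 and 6420 with vehicle, and 2522 in treated replicate 1 against 6131 in treated replicate 2. Treated replicate 1 thus stood at the wild-type level and replicate 2 near that of the vehicle mutants, and 0 of 14 markers passed (0 at an unadjusted p under 0.05). Mobp, a basic protein of myelin, was at 227 and 249 CPM in wild type, 724 and 666 with vehicle and 267 and 687 with treatment (1.00 ± 0.53, adjusted p = 0.509). Without treated replicate 1, 13 of the 14 were higher, as were 5 of 11 oligodendrocyte precursor markers. A fit with this marker level as a covariate called 518 genes (109 higher, 409 lower). Microglia markers had 0 of 14 that passed (median 0.23), endothelial markers 0 of 13 (median 0.14), and oligodendrocyte precursor markers 0 of 11 (median 0.42), with 4, 0 and 5 higher and 0 lower at an unadjusted p under 0.05. At that p 7.11% of all tested genes were higher and 8.62% lower. The 3 list medians moved with single libraries: the endothelial one was -0.11 without treated replicate 1, the microglial one 0.07 without wild-type replicate 1 and the precursor one 0.19 without treated replicate 2.

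**Figure D4:**
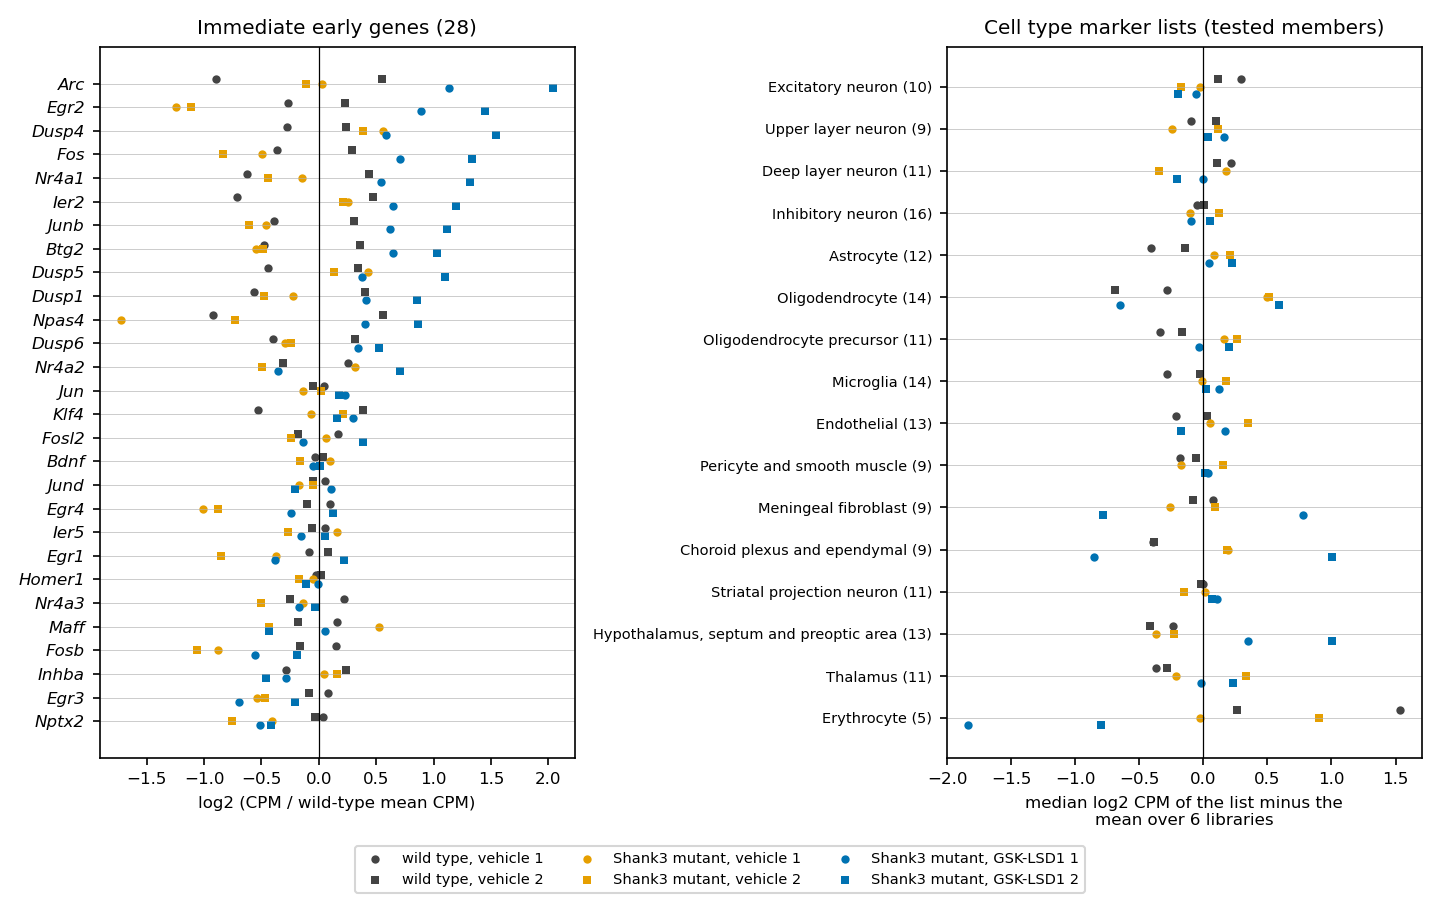
Left, CPM of each library relative to the wild-type mean (log2) for the 28 immediate early genes, in order of their fold change. Right, the median log2 CPM of each marker list in each library, centred on its mean over the 6 libraries; treated replicate 1 and replicate 2 lie far apart for oligodendrocyte, meningeal and choroid plexus markers, and both stand above the other 4 libraries for the hypothalamus list.

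The 4 higher genes with the smallest p also stood on a list of markers of neighbouring brain regions. This list, of hypothalamus, septum and preoptic area markers, holds Hap1, Baiap3, Zcchc12 and Prph, which were known as higher when it was drawn up, and these were the 4 of its 13 tested members that passed. Its summed level was 283 and 229.9 CPM in wild type, 274 and 252 with vehicle, and 481 and 619 with treatment. Of the 9 other tested members 0 passed, or 3 without treated replicate 1, although Ngb, Ecel1, Magel2, Zic1, Zic2 and Nnat had both treated libraries above both wild-type ones. Of all tested genes 23.5% had both treated libraries above both wild-type ones. Ecel1, an endopeptidase of neurons, was at 1.10 and 1.77 CPM in wild type and 2.50 and 5.79 in treated mutants (1.46 ± 0.44, adjusted p = 0.0925), and Zic1, a factor of septal and thalamic cells, at 11.1 and 11.7 and 14.97 and 49.3, with treated replicate 2 far above replicate 1. Several defining genes of the hypothalamus were near 0 and were not tested. Gal, Hcrt, Pmch, Avp, Oxt, Sim1, Nkx2-1, Six3 and Lhx9 had 0 to 10 reads in each of the 6 libraries. Lhx9 had 10 and 6 reads in the treated libraries and 2 in each other one. Hcrt reached 8 in treated replicate 2, and Avp reached 9 in vehicle replicate 2. Isl1, of the striatal list and also below the filter, had 33 reads in treated replicate 2 and 0 to 2 in every other library. Of 11 thalamus markers Zic4 was higher (1.66) and 0 lower, a call lost without wild-type replicate 2 or treated replicate 2, under upper quartile or plain library scaling and by limma-voom, and of 11 striatal markers 0 passed, with 2 higher and 1 lower at an unadjusted p under 0.05. At that unadjusted p 7.11% of all tested genes were higher and 8.62% lower. The part of neighbouring tissue in the differences of these marker lists was not tested.

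Markers of choroid plexus, ependyma and blood were measured as well. Of 9 choroid plexus and ependymal markers 2 were higher: Kl, at 2.67 and 3.65 CPM in wild type and 7.67 and 8.45 in treated mutants (1.32 ± 0.26, adjusted p = 0.0135), and Clic6, whose wild-type libraries lay below the floor of 3 reads and whose treated ones were at 0.424 and 3.20 CPM. Clic6 lost its call without wild-type replicate 2 or treated replicate 2, by limma-voom and with the oligodendrocyte covariate, which left 1 of the 9. Ttr, the main secreted protein of the choroid plexus, was at 0.958 and 2.20 CPM in wild type and 0.848 and 5.86 in treated mutants. The list's summed level was 11.5 and 10.5 CPM in wild type and 13.4 and 31.3 in treated mutants, so treated replicate 2 alone stood apart. Red cell markers summed to 25.4 and 43.3 CPM in treated mutants, 83.8 and 183.3 with vehicle and 242 and 101 in wild type, and 0 of 5 passed. At an unadjusted p under 0.05, 0 were higher and 4 lower, where 7.11% and 8.62% of all tested genes were.

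Gene length went along with the direction of the difference. The 372 lower genes had a median exonic length of 8.12 kb and a median span on the genome of 87.7 kb, against 4.16 and 16.9 kb for the 119 higher genes and 3.79 and 17.8 kb for all tested genes. When the annotated tested genes were split into 5 equal parts by exonic length, 0.109% of the shortest part were lower and 5.97% of the longest. The higher genes stood at 0.543% in both the shortest and the longest part. After a correction for length and GC content in the fit, 398 genes passed (117 higher, 281 lower), and the lower ones made up 0.244% of the shortest and 3.18% of the longest part. The share of higher genes then rose with each part, from 0.272% of the shortest to 1.09% of the longest. With that correction 1 of 6 NMDA receptor subunits was lower, against 3 without it. The counts were 4 against 5 for AMPA and kainate genes, 4 against 5 for scaffolds, 5 against 6 for adhesion proteins, 5 against 7 for calcium channels and 6 against 9 for potassium and HCN channels. Active zone proteins had 3 lower and metabotropic receptors 1 with or without it, and 1 active zone protein was then higher.

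**Figure D5:**
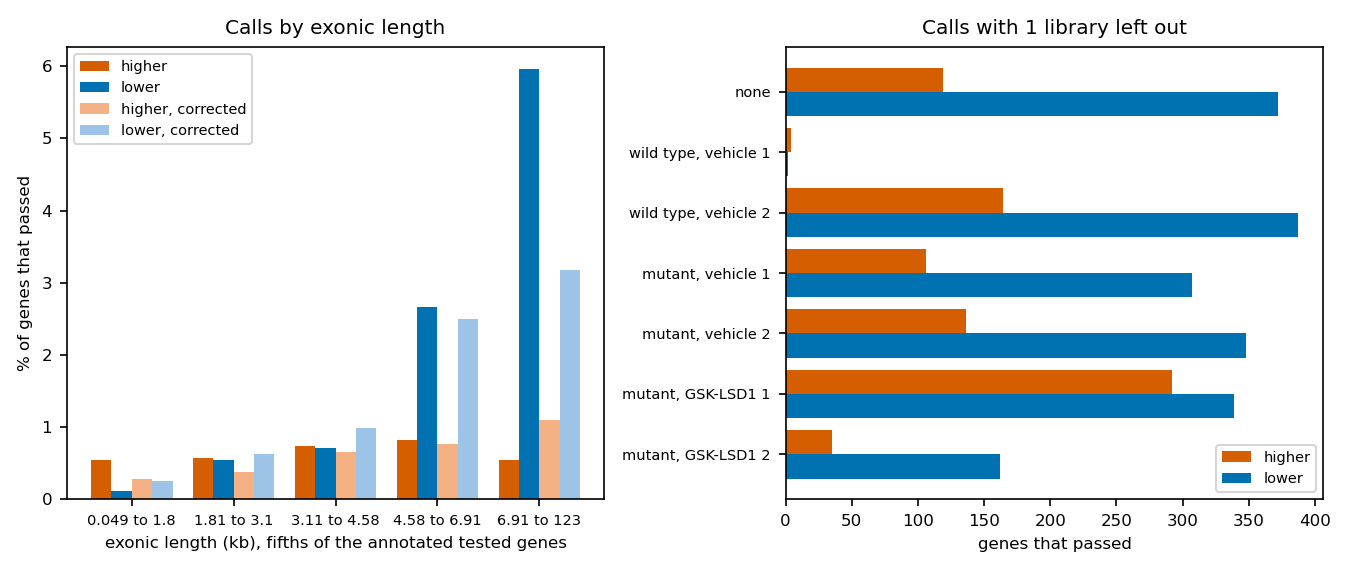
Left, percentage of genes that passed in each of 5 equal parts by exonic length (kb), higher and lower, before and after the correction for length and GC content; lower genes climb from 0.109% to 5.97% without it and from 0.244% to 3.18% with it, and higher ones from 0.272% to 1.09% with it. Right, number of genes that passed with each library left out in turn, from 6 in all without wild-type replicate 1 to 631 without treated replicate 1.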

How the data were processed

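RNA of 6 prefrontal cortex libraries in 3 groups of 2 was measured. The authors deposited 1 file of raw read counts per library, with 54134 gene symbols. Per the submitters' processing notes, cutadapt, TopHat2, SAMtools, featureCounts and edgeR were used with mm10 (GRCm38). Neither versions nor annotation release nor strand setting is given in the sources used here; overlapping or antisense genes may therefore have shared reads. All 37 mitochondrial genes stood at 0 and 26 symbols had turned into dates. Symbols were matched to GENCODE M21 (98.4% of those tested) and promoters to RefSeq.

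The tests used R 4.3.3, edgeR 4.0.16 (filterByExpr, TMM, robust quasi-likelihood fit of 3 groups to all 6 libraries, 3 residual degrees of freedom, two-sided, Benjamini-Hochberg, threshold 0.05), with limma 3.58.1 and DESeq2 1.42.0 as alternatives and mgcv 1.9.3 for the length and GC correction. The biological coefficient of variation was 11.5%. SE was taken as log2 fold change (absolute) over the root of edgeR's F. The floor of 3 reads, 0.105 to 0.212 CPM, covers counting error only. Libraries of a group differed beyond sampling noise (chi-square over its degrees of freedom: 9.94 to 13.3). The procedure was tested on simulated data.

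Named genes were Shank3, Kdm1a, for each direction the 15 passing genes of smallest adjusted p with at least 1 CPM on average and no overlap (no predicted genes, pseudogenes or date symbols), and for each list up to 4 passing members of smallest p (2 where none passed); some of these are not reported here. Dlgap4, Pcdhga3, Sparc, Wdfy3, Myt1l, Asxl3, Ttr, Ecel1, Zic1, Fos, Arc, Egr4 and the genes below the filter were named after their values were seen. Members and lists were chosen with earlier results of these data known, and lists are described by counts and medians only. Replicate numbers were not used as pairs in the main fit. Alternatives covered scaling, filters, tools, thresholds, the replicate block, length and GC, an oligodendrocyte covariate and each library left out.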

Additional observations from a re-analysis of the deposited data

How the results depend on the processing

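Of 491 genes (119 higher, 372 lower), library-size scaling left 253 with 142 lower, no low count filter gave 962 (332 higher, 630 lower), DESeq2 782 with 622 lower, and a fit that was not robust 77 higher. An adjusted p under 0.01 left 64 (9 higher, 55 lower), and one under 0.1 gave 871 (268 higher, 603 lower). Leaving out 1 library gave 6 to 631 genes, with 4 to 292 higher and 2 to 387 lower; the lowest counts came without wild-type replicate 1, and 197 (35 higher, 162 lower) without treated replicate 2. The cause was not tested. Counts in both directions stayed within 1.5 times of these under RLE and upper quartile scaling, a filter at 1 CPM, limma-voom, the 4 libraries alone, length and GC correction, the 20 most abundant genes left out, and the oligodendrocyte covariate. The replicate block gave 505 genes (156 higher, 349 lower), and the block with length and GC correction 180 higher; deviations of same-numbered libraries correlated at -0.07 for wild type and treated mutants, -0.08 for wild type and vehicle mutants and 0.16 for both mutant groups, so the numbers do not show pairing.

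Of 142 named genes 106 passed, and 5 (Baiap3, Hap1, Prph, Zcchc12 and Scube1) kept that call in every alternative that gave a value. Signs turned in 3 that had not passed: Shank3 (0.0559 with library-size scaling, 0.0663 with length and GC correction and 0.0726 with the block as well, 0.0104 with the oligodendrocyte covariate, and -0.0839 to 0.0251 with 1 library left out, above 0 without wild-type replicate 2 or treated replicate 2), Kdm1a (0.0062 with library-size scaling) and Aldh1a2 (-0.0090 without treated replicate 1 to 0.940 without treated replicate 2). With 2 libraries a group and as few as 14133834 reads, a difference that did not pass is not shown to be absent.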

Other observations

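Genes near the mutated locus and the spread of calls along the genome were counted after the values had been seen. Of 74 tested genes within 5 Mb of Shank3 on chromosome 15, 0 were higher and 1 was lower (Slc2a13, a myo-inositol transporter), and their median log2 fold change was -0.02, against 0.02 over all tested genes. Scube1, lower in all mutant libraries, lies on the same chromosome just outside this window. It runs from 83604999 to 83725021, and Shank3 begins at 89499623. A part of the mutated locus in its difference was not tested. Across the autosomes and the X chromosome the share of tested genes that passed ran from 1.56% on chromosome 13 to 4.09% on chromosome 18, against 2.62% over all.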
